A study of Capra hircus with 4 samples.

Results

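The cytosolic ribosomal protein genes are described here in RNA-seq data of goat longissimus dorsi muscle. Members were the goat gene names in the authors' table of unigenes that begin with RPL or RPS and a number, together with RPLP0 to RPLP2 and RPSA where present, and the RPS6 kinases were left out. This gave 64 genes, 39 with large subunit names and 25 with small subunit names, among 11207 goat genes. The libraries came from Cashmere goats aged 2 months. In the treated group ractopamine, a β2-adrenergic agonist that raises cAMP in muscle, was given by mouth at 1 mg/kg body weight over 28 dosing days, and 21 withdrawal days came after that. There were 1 control library and 3 treated libraries, which the submitters call replicates, named the control and T1, T2 and T3 below. The methods of the study describe muscle taken on days of dosing and of withdrawal. They place the RNA-seq on dosing day 21 and withdrawal days 3 and 21, with control samples for those days. The labels give no day for a library, so T1, T2 and T3 may be different days and not replicates of 1 condition. Treatment, day and animal cannot be told apart among these libraries.

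Each cytosolic ribosome has a large 60S subunit, which joins amino acids, and a small 40S subunit, which reads the mRNA. Each subunit is built from ribosomal RNA and a single copy of most of its proteins, so their mRNAs are usually made in step, and most of them carry a 5′ terminal oligopyrimidine tract through which their translation is set by nutrients and growth signals. In muscle, ribosome number is known to bear on the capacity for protein synthesis, and RPL3L, a form of RPL3 made in striated muscle, is known as a tissue-specific ribosomal protein.

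T2 stood apart before any member was considered. Of the counts of goat-paired unigenes, 97.9% were from mitochondrially encoded genes in this library, against 23.8% in the control, 42.8% in T1 and 55.2% in T3. Goat-paired counts ranged from 6016927 to 7982576 per library, but only 133802 remained in T2 after leaving out the mitochondrially encoded genes, against 2697657 to 6086312 in the others. Of 14 skeletal muscle markers, 9 were paired with a unigene, and their TPM (transcripts per 1000000, a level per length) summed to 61196 in the control and to 44892, 2560 and 60673 in T1, T2 and T3. The 3 paired leukocyte markers summed to between 0 and 11.5 TPM, the 4 paired fibroblast markers to between 38.1 and 81.6 TPM, the 3 adipocyte markers to between 9.47 and 38.5 TPM and the 3 endothelial markers to between 4.29 and 41.5 TPM, and no red blood cell marker was paired. Since mitochondrially encoded counts are part of the total of all goat-paired counts, values are given below on the scale with and without them. The TPM total also includes mitochondrially encoded transcripts, so the low marker sums of T2 cannot be read as a loss of fibres or of their RNA. In these bulk samples, fewer fibres, less RNA per fibre and a larger mitochondrially encoded part of the total cannot be told apart.

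The 64 genes were represented by 86 unigenes, of which 66 had at least 90% protein identity with the goat protein. A single unigene stood for 43 genes, and 46 genes had a unigene with 100% identity. The 20 unigenes under 90% identity included 14 whose best protein match was in an apicomplexan parasite and 2, of which 1 was paired with RPS14, whose best match was in an enterobacterium. These 14 held 1 count in the control and 59, 1 and 0 in T1, T2 and T3, whereas the 2 enterobacterial ones held 128 counts in the control and 256, 517 and 154 in the treated ones. RPS7 was the single member without a unigene of at least 90% identity. It had 1 count in all, in T1, on a unigene with an apicomplexan match, while a goat gene described as 40S ribosomal protein S7-like held 1779, 2597, 108 and 1339 counts in the control and T1, T2 and T3. It was 1 of 23 genes, mostly with LOC names, that are described as cytosolic ribosomal proteins and lie outside the name rule. Proteins SA, P1, S24 and S4 were also among them. Those 23 genes held 48221, 64647, 2703 and 38378 counts in the 4 libraries and were not counted as members. A filter of 40 counts over the 4 libraries left 63 members, all but RPS7.

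Ribosomal protein genes held 146785 counts in the control, 164595 in T1, 8538 in T2 and 104960 in T3. As a share of all goat-paired counts, this was 1.84% in the control (95% exact interval 1.83 to 1.85%) and 2.36% (2.35 to 2.37%), 0.135% (0.132 to 0.138%) and 1.74% (1.73 to 1.75%) in T1, T2 and T3. On this scale T1 was 1.28-fold and T3 0.949-fold of the control, and T2 was 13.6-fold lower. When the mitochondrially encoded genes were left out of the total, the shares were 2.41% (2.40 to 2.42%) in the control and 4.12% (4.10 to 4.14%), 6.38% (6.25 to 6.51%) and 3.89% (3.87 to 3.91%) in the treated libraries. All 3 treated libraries then lay above the control, 1.71-fold, 2.65-fold and 1.61-fold, so the direction in T2 and T3 depended on the scale. The intervals cover counting error only. Against the control, the treated shares were 1.41% ± 1.15 (SD, n = 3) on the first scale and 4.80% ± 1.38 (SD, n = 3) on the second, and exact permutation over the 4 libraries gave a two-sided p of 0.75 and 0.5, where the smallest possible p is 0.25.

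**Figure D1:**
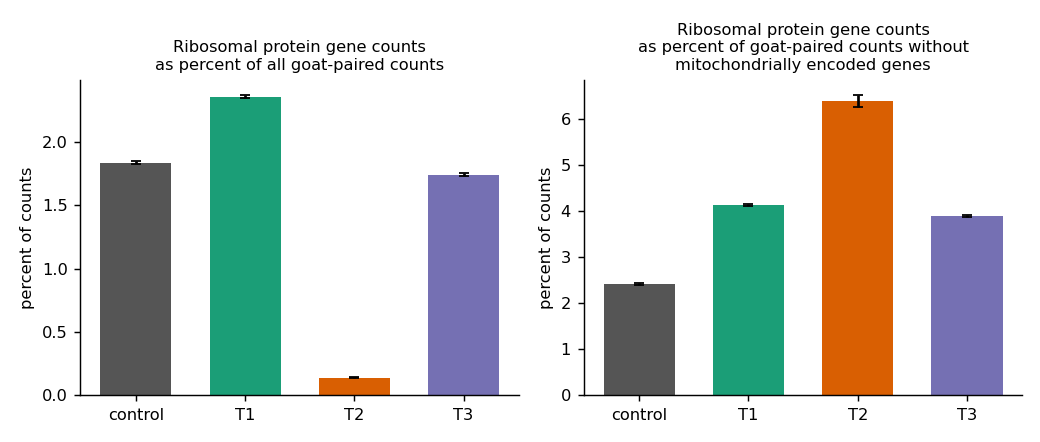
Counts of the 64 ribosomal protein genes as percent of all goat-paired counts (left) and of goat-paired counts without mitochondrially encoded genes (right) in each of the 4 libraries, with 95% exact intervals for counting error. T2 is the lowest bar on the left, at 0.135%, and the highest on the right, at 6.38%.

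In each treated library, the folds of the ribosomal protein genes against the control lay above the median fold of all genes, whichever total was used. Scaled without mitochondrially encoded genes, the median log2 fold of the 63 members against the control was 0.78 in T1, 1.26 in T2 and 0.66 in T3, while the medians of all 7544 goat genes tested were -0.38, -0.26 and -0.45. Scaled to all goat-paired counts, the member medians were 0.36, -3.91 and -0.11 and those of all genes -0.79, -5.43 and -1.22. The difference between the medians does not change with scaling and was 1.16, 1.52 and 1.11 on the log2 scale. In each treated library, 63 of 63 members lay above the median of all genes, above which 50% of all genes lie by definition. Of the 63, 49, 53 and 57 also lay above the upper quartile of all genes in T1, T2 and T3. The member nearest the middle was RPL15 in T1, RPL3L in T2 and RPL7L1 in T3, with 61.1%, 54.3% and 61.6% of all genes below it. The 3 comparisons share 1 control library, so they are not independent of each other.

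**Figure D2:**
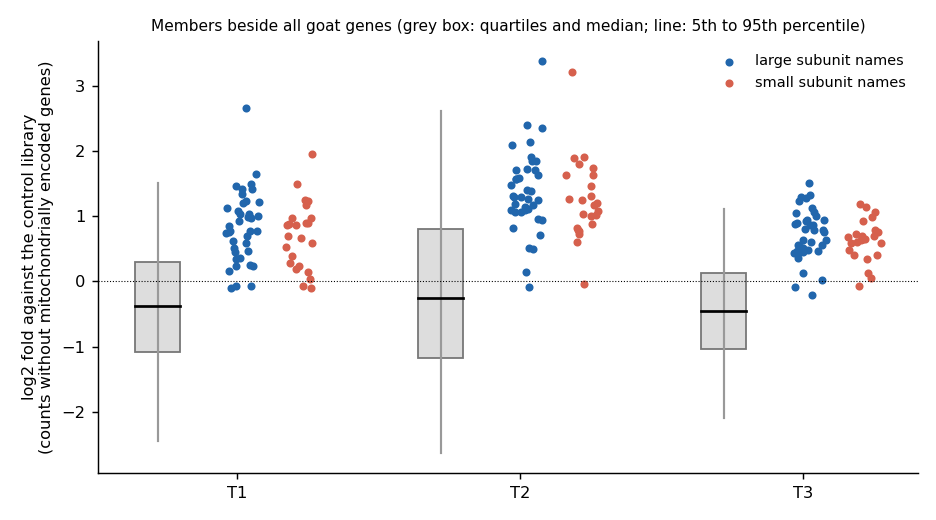
Log2 fold of each of the 63 ribosomal protein genes against the control, scaled without mitochondrially encoded genes, in the 3 treated libraries, with quartiles, median and 5th to 95th percentile of 7544 goat genes in grey. Member medians are 0.78, 1.26 and 0.66; scaled to all goat-paired counts they are 0.36, -3.91 and -0.11, and every member stays above the grey median on either scale.

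Length of the unigenes moved with these folds. Across all genes, fold and length correlated with a Spearman rho of -0.25, -0.33 and -0.34 in T1, T2 and T3 (7544 genes of the same libraries), and the median main unigene of a member had 746 bases against 1345 over all goat genes. Among the 966 genes with unigenes under 1 kb, the median log2 fold without mitochondrially encoded genes was 0.30, 0.59 and 0.30. The 44 members of that length had medians of 0.82, 1.26 and 0.70. Between 1 and 3 kb, 19 members had medians of 0.77, 1.29 and 0.64 against -0.38, -0.17 and -0.42 for the 5022 genes of that length. The members thus lay above genes of their own length in each class, although less so among short genes, and the part of length in the result was not tested.

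At a limit of 2-fold on the scale of all goat-paired counts, 8 of 63 members were higher in T1, where 5.69% of all genes were higher, and 0 were lower, where 42% of all genes were lower. The 8 were RPL17, RPL22, RPL31, RPL34, RPL36A, RPL37, RPS15A and RPS27A. In T2 all 63 members were lower, as were 99% of all genes, and 0 were higher (0.0928% of all genes). In T3, 0 members passed either limit, with 1.55% of all genes higher and 60.3% lower. Without mitochondrially encoded genes, 20, 48 and 12 members were more than 2-fold higher in T1, T2 and T3, against 10.4%, 21.3% and 5.95% of all genes, and 0 were lower in any of them, against 27.3%, 29.3% and 26.2%. With TMM factors, 42, 54 and 42 members were higher, against 18.8%, 25.6% and 13.5% of all genes, and 0 lower, against 15.9%, 24.3% and 13.4%. With DESeq2 size factors, 38, 51 and 35 were higher, against 15.9%, 24.2% and 11.7%, and 0 lower, against 18.6%, 25.5% and 15.2%. At the limits of 3 and 0.6 that the study used for its screening, on the scale of all goat-paired counts, RPL22 in T1 was the 1 member higher (2.56% of all genes, and 0.0663% and 0.623% in T2 and T3), and RPL7L1, RPL15 and RPS19BP1 were the 3 lower in T3 (71.6% of all genes), beside 0 in T1 (52.5%) and 63 in T2 (99.3%).

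The test between the groups called no ribosomal protein gene. With edgeR's quasi-likelihood test on 3 treated libraries and 1 control library, 0 of 63 members and 0% of 7544 genes passed an adjusted p of 0.05, and at an unadjusted p under 0.05 there were 0 members and 10 genes, all lower. DESeq2 also called 0 genes, with 0 members and 128 genes at an unadjusted p under 0.05. The lone control library was assumed to vary like the treated ones. With so few libraries and such spread between them, a lack of calls does not show that members were unchanged. With library sizes without mitochondrially encoded genes, edgeR again called 0, and RPL22, RPL3 and RPL34 were higher at an unadjusted p of 0.0265, 0.0392 and 0.0490 (adjusted p = 0.300, 0.346 and 0.375). At that setting 199 of all genes (2.64%) were higher and 800 (10.6%) lower at an unadjusted p under 0.05, against 4.76% and 0% of members. When T2 was left out as well, an alternative added after the data were seen, 31 genes were called higher (0.411%) and 250 lower (3.31%), still 0 of them members. The nearest member was RPL22, with a log2 fold change of 2.20 and an adjusted p of 0.0829 by edgeR, higher in 2 of 2 libraries. Without T1 instead, 14 genes were higher (0.186%) and 9 lower (0.119%), and without T3, 9 were higher (0.119%) and 11 lower (0.146%), again with 0 members.

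Members of both subunits were compared through the ratio of large to small subunit counts, which needs no scaling. The ratio was 1.53 in the control (95% exact interval 1.52 to 1.55), 1.69 in T1 (1.67 to 1.71), 1.48 in T2 (1.42 to 1.55) and 1.56 in T3 (1.54 to 1.58). T1 lay apart from the other libraries beyond counting error, and the intervals of the control, T2 and T3 overlapped each other. Over the treated libraries the ratio was 1.58 ± 0.106 (SD, n = 3), and exact permutation over the 4 libraries gave a two-sided p of 0.75 (smallest possible 0.25). The low ratio of T2 rested on 1 unigene, the one with an enterobacterial match paired with RPS14. It is 8140 bases long, has 42% identity with the goat protein and held 126, 248, 508 and 151 counts in the 4 libraries, so that it was most of RPS14 in T2. With pairings of at least 90% identity only, the ratio was 1.54 in the control and 1.70, 1.74 and 1.56 in T1, T2 and T3, which put T2 highest instead of lowest. The subunits' median log2 folds without mitochondrially encoded genes were 0.78 for both in T1, 1.29 for large and 1.19 for small in T2, and 0.76 and 0.65 in T3.

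RPL3 and RPL3L encode alternative forms of the large subunit protein near the peptidyl transferase centre, RPL3 in most tissues and RPL3L in heart and skeletal muscle. The start of both coding sequences as assembled from these goats is shown to let a reader see how far the paralogs differ, with the bases that differ in capitals.
RPL3: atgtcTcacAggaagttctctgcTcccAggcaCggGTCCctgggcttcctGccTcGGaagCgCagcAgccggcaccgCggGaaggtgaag
RPL3L: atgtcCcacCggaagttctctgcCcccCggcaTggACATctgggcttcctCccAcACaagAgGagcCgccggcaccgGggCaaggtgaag
These 90 bases hold 18 differences. Over 1212 aligned coding bases, 75.4% were identical and the longest identical run had 17 bases, so any read longer than that crosses a difference between the paralogs. The RPL3 unigene codes for 403 codons and that of RPL3L for 407.

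The control library held 2979 counts of RPL3L and 372 of RPL3, or 8.01 RPL3L counts per RPL3 count (95% exact interval 7.19 to 8.94). T1 held 2332 and 568 counts, a ratio of 4.11 (3.74 to 4.51). T2 held 61 and 85, a ratio of 0.718 (0.508 to 1.01), and T3 held 1347 and 403, a ratio of 3.34 (2.99 to 3.75). All 3 treated libraries lay below the control, 1.95-fold, 11.2-fold and 2.40-fold, with intervals that did not overlap with that of the control, and RPL3L exceeded RPL3 in all but T2. Per length, from TPM, the ratios were 6.27, 3.22, 0.561 and 2.62. With 1 control library the exact permutation test cannot reach a p below 0.25. Per 1000000 counts without mitochondrially encoded genes, RPL3L had 490 in the control and 584, 456 and 499 in the treated ones. On the same scale RPL3 had 61.1 in the control and 142, 635 and 149 in the treated ones, which is 2.33-fold, 10.4-fold and 2.44-fold, so that RPL3 was further from the control than RPL3L on this scale. On the scale of all goat-paired counts, the folds of RPL3L were 0.896, 0.026 and 0.60 and those of RPL3 1.75, 0.289 and 1.44.

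**Figure D3:**
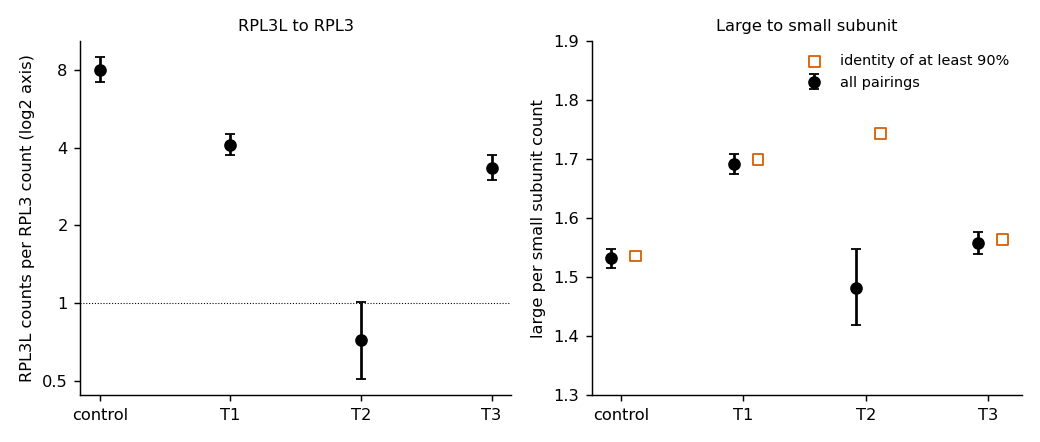
RPL3L counts per RPL3 count (left, log2 axis) and large per small subunit count (right, axis from 1.3 to 1.9) in each of the 4 libraries, with 95% exact intervals for counting error; open squares show the subunit ratio from pairings of at least 90% identity. RPL3L per RPL3 is 8.01 in the control and 0.718 to 4.11 in the treated ones, and the subunit ratio of T2 is 1.48 or 1.74 depending on the pairings.

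Of the other paralogs, RPL7L1, which takes part in making the large subunit, had 144 counts in the control and 153, 3 and 55 in the treated libraries, beside 2492, 2788, 118 and 1631 of RPL7. The RPL7L1 share of the pair was 5.46% (95% exact interval 4.63 to 6.40%) in the control and 5.20%, 2.48% and 3.26% in T1, T2 and T3, with 2.47 to 4.23% as the interval of T3, so that the control and T1 did not differ beyond counting error and T3 lay below both. RPL26L1, a close copy of RPL26, had 58, 52, 2 and 35 counts over unigenes of 316 and 332 bases, and RPL26 had 1992, 2632, 130 and 1519. Its share of the pair was between 1.52% and 2.83%, with overlapping intervals in all 4 libraries. RPS27L, a copy of RPS27 that is known to respond to p53, had 443 counts in the control and 379, 9 and 261 in the treated ones, and its partner RPS27 had no pairing under that name. RPS19BP1 is named for its binding to RPS19 and is no part of the ribosome. It had 74, 55, 2 and 31 counts and had the lowest mean TPM of the members with at least 40 counts.

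Levels among the members spanned a wide range in every library. In TPM, the members with at least 40 counts had a median of 551 in the control, from 16.9 for RPS19BP1 to 3976 for RPS28. RPS28, a small subunit protein near the mRNA exit, had the highest level in all 4 libraries, with 4180, 289 and 4386 TPM in T1, T2 and T3. RPS18, RPS29 and RPL31, 2 small subunit proteins and 1 of the large subunit, followed among the 5 highest mean levels. RPS18 had 1597, 1565, 116 and 1433 TPM, RPS29 1444, 1737, 109 and 1413 TPM, and RPL31 1081, 2016, 127 and 1498 TPM in the control and T1, T2 and T3. RPL31 was thus below RPS18 and RPS29 in the control and above both in the treated ones, while RPS18 and RPS29 were close to each other in each library. RPL19, the fifth, had 1181, 1839, 90.4 and 1294 TPM. At the lower end, RPL3 was the least abundant of the 58 members other than paralogs and RPS19BP1 in all but T2, with 47.9 TPM in the control, where its muscle form RPL3L had 300.4 TPM. The coefficient of variation of TPM over the 63 members was 85.8% in the control and 82.2%, 75.6% and 93.2% in the treated libraries.

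**Figure D4:**
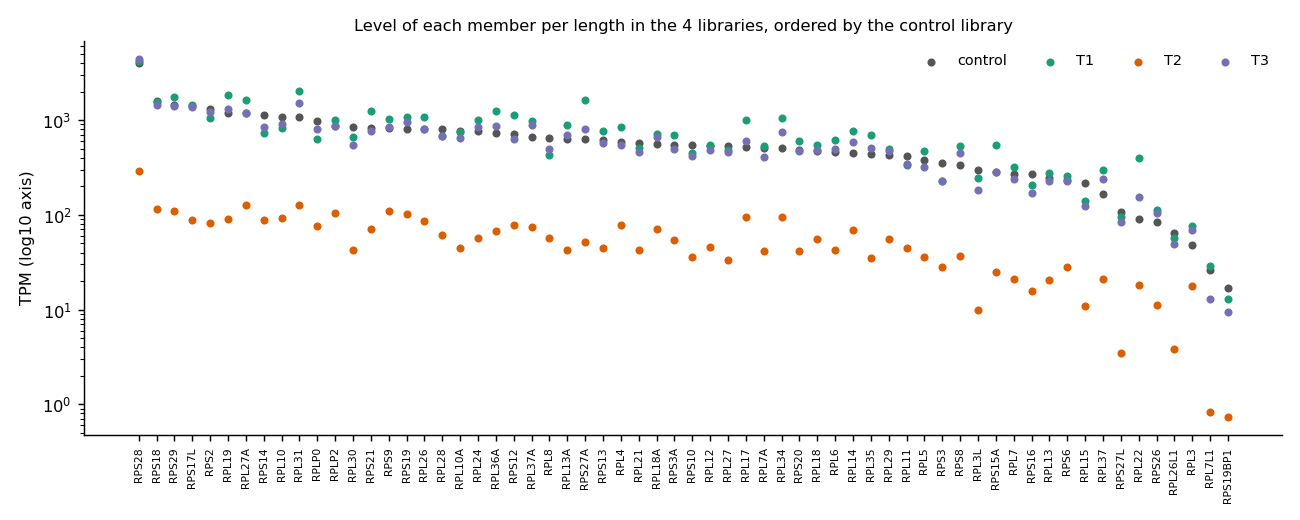
TPM (log10 axis) of the ribosomal protein genes with at least 40 counts, all but 1 of the 63, in the control and the 3 treated libraries, ordered by level in the control. RPS28 is highest in every library, at 3976, 4180, 289 and 4386 TPM, and T2 lies below the other three for every gene shown, on a scale that includes its mitochondrially encoded transcripts.

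The make-up of the family was described by the share of all member counts that each took, treated over control, a fold that does not depend on the scaling of the libraries. In T1 the folds ran from 0.545 to 3.72, in T2 from 0.349 to 3.93 and in T3 from 0.534 to 1.76. By 95% exact intervals for counting error, 28 members lay above 1 and 25 below in T1, 17 and 21 in T2, and 24 and 26 in T3. Past 2-fold there were 2 members higher in T1, which were RPL22 and RPS27A. In T2 there were 2 higher, RPL3 and RPS14, and 4 lower, RPL3L, RPL7L1, RPS27L and RPS19BP1, of which the last 3 had 2 to 9 counts there. In T3 there were 0. These numbers are from all pairings. Of the 8538 member counts of T2, 517 were on the 2 enterobacterial unigenes, which lowers the shares of the other members there. With pairings of at least 90% identity, RPL17 and RPL34 also passed 2-fold in T2, at 2.05 and 2.11, and RPS14 did not.

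RPL22, a large subunit protein also known to bind viral and cellular RNAs, had 662 counts in the control, 2759 in T1, 62 in T2 and 832 in T3. It took 0.451% of member counts in the control and 1.68%, 0.726% and 0.793% in the treated libraries. Its share was therefore higher in all 3, 3.72-fold (95% exact interval 3.41 to 4.05), 1.61-fold (1.22 to 2.09) and 1.76-fold (1.59 to 1.95), and T1 stood clear of the other two. Per 1000000 counts without mitochondrially encoded genes, it had 109 in the control and 691, 463 and 308 in the treated libraries, and it did not pass the test (adjusted p = 0.300 by edgeR). RPL34, a small large-subunit protein, had 894, 1836, 103 and 995 counts. Its share was 1.83-fold (1.69 to 1.99), 1.98-fold (1.60 to 2.43) and 1.56-fold (1.42 to 1.71) of that in the control, with intervals that overlapped among the treated libraries. RPL37, which carries a zinc-binding motif, and RPL31 also had a higher share in all 3, with folds of 1.56, 1.35 and 1.5 for RPL37 and of 1.62, 1.24 and 1.46 for RPL31.

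RPL15 and RPS16 had the opposite pattern. RPL15, a large subunit protein needed for processing of ribosomal RNA, had 3111 counts in the control and 1900, 97 and 1295 in the treated libraries, and its share was 0.545-fold (95% exact interval 0.514 to 0.577), 0.536-fold (0.433 to 0.656) and 0.582-fold (0.545 to 0.621). RPS16, a small subunit protein that contacts the initiator tRNA, had 2081, 1512, 75 and 961 counts and a share of 0.648-fold, 0.620-fold and 0.646-fold. For RPL15 the intervals of the 3 treated libraries overlapped each other and lay below 1, and for RPS16 the folds were close to each other. Per 1000000 counts without mitochondrially encoded genes, RPL15 had 511 in the control and 476, 725 and 480 in the treated ones, or 0.931-fold, 1.42-fold and 0.939-fold. The starts of the coding sequences of the pair with higher and the pair with lower shares are shown because base composition was examined next, with G and C in capitals.
RPL22: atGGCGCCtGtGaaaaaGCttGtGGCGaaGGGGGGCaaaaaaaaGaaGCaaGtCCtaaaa
RPL34: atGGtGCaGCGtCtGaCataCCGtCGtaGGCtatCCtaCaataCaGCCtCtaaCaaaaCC
RPL15: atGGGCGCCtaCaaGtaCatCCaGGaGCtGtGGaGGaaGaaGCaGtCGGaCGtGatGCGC
RPS16: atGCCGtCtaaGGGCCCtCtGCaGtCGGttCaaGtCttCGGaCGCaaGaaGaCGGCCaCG
In these 60 bases, 28 and 29 were G or C in RPL22 and RPL34, and 35 and 36 in RPL15 and RPS16. Over the whole coding sequence the GC content was 41.6% for RPL22, 46.0% for RPL34, 61.3% for RPL15 and 57.1% for RPS16, while over the whole main unigene it was 43.6%, 44.6%, 45.0% and 50.8%, so that RPL15 was close to the first pair there. Over the 63 members, the log2 fold and the GC content of the main unigene correlated with a Pearson r of -0.38 (Spearman rho -0.38) in T1, -0.03 (-0.07) in T2 and -0.18 (-0.16) in T3, and with -0.43 (-0.43) for T1 against T3. Over all 7544 genes the values were -0.12 (-0.14) in T1, 0.08 (0.08) in T2 and 0.08 (0.08) in T3, the last 2 opposite in sign to those of the members, and -0.24 (-0.28) for T1 against T3. The points are genes of the same libraries and no test was made. GC content moved with the members' folds mainly in T1, and its part in the results was not tested.

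**Figure D5:**
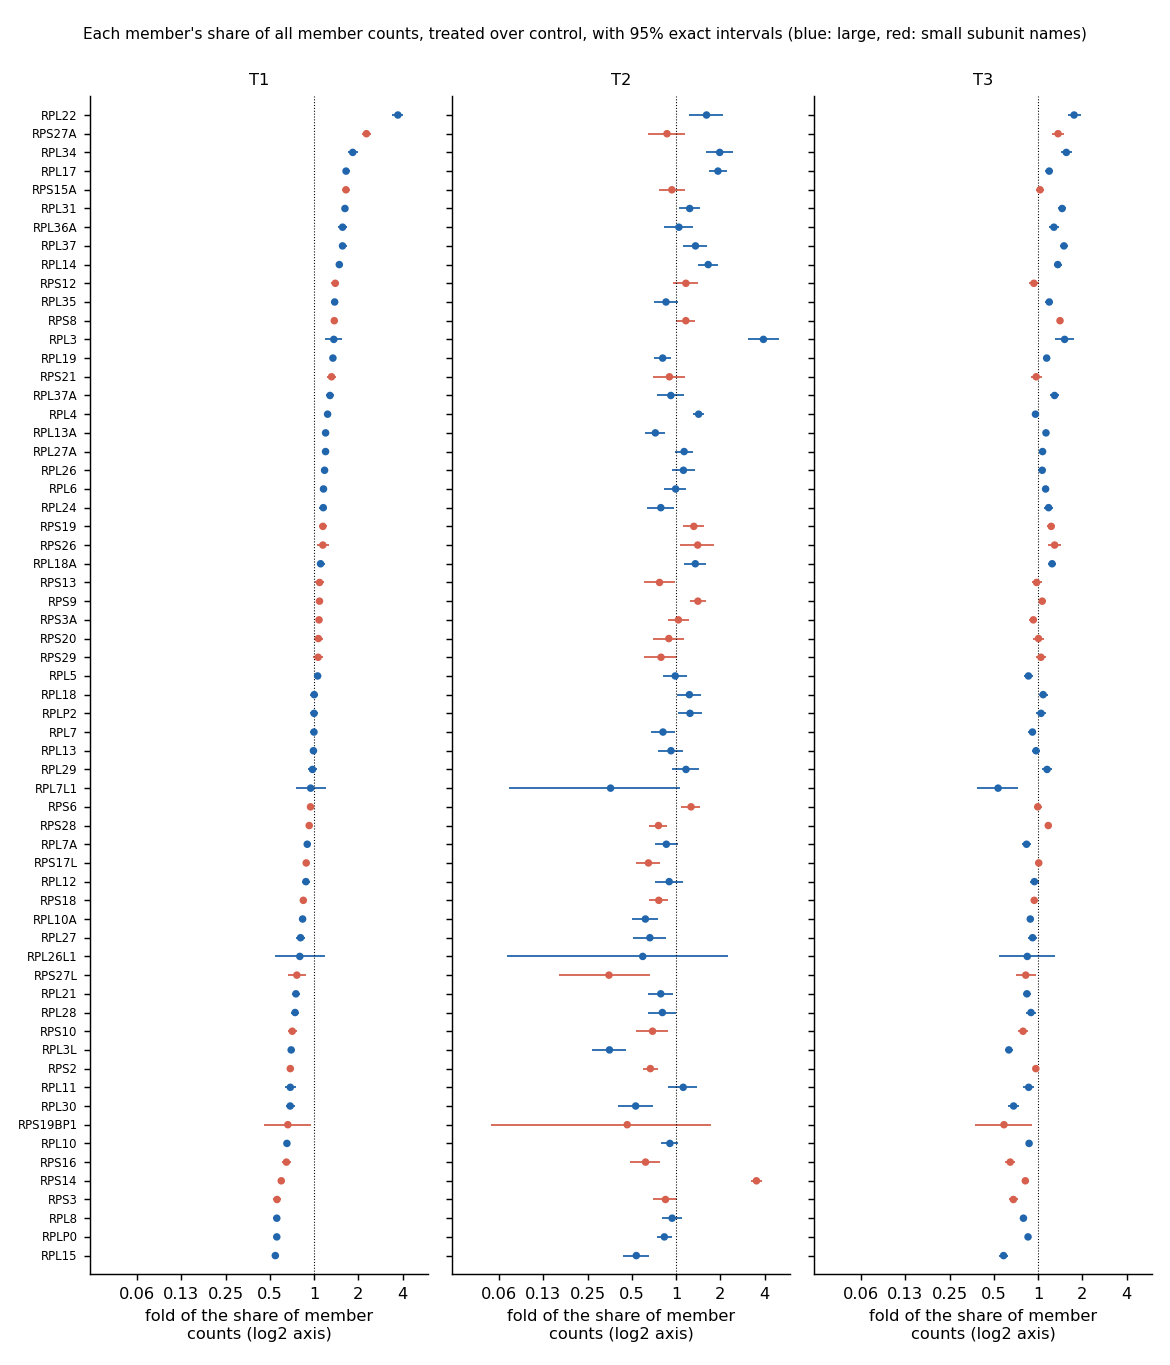
Share of member counts taken by each ribosomal protein gene, all but 1 of the 63, treated library over control library (log2 axis), with 95% exact intervals for counting error, ordered by T1; blue marks large and red small subunit names. RPL22 is at the top with 3.72, 1.61 and 1.76 and RPL15 at the bottom with 0.545, 0.536 and 0.582, while RPS14 in T2, at 3.52, rests on the unigene with an enterobacterial match.

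RPS27A is made as a fusion of ubiquitin with a small subunit protein. The 60 bases that span the join are shown with the last 2 codons of ubiquitin in capitals, since they mark where the ribosomal protein begins.
RPS27A: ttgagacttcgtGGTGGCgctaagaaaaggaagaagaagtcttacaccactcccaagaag
RPS27A had 1051 counts in the control and 2676, 53 and 1027 in T1, T2 and T3. Its share of member counts was 2.27-fold (95% exact interval 2.11 to 2.44), 0.867-fold (0.645 to 1.14) and 1.37-fold (1.25 to 1.49), so that it was higher in T1 and T3 beyond counting error, while the interval of T2 held 1. Reads from the ubiquitin part can be shared with other ubiquitin genes, and its values are uncertain to that extent.

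RPS14 shows how a pairing can set a value. Under all pairings it had 3056 counts in the control and 2048, 626 and 1789 in the treated libraries, and its share was 0.598-fold, 3.52-fold and 0.819-fold. Its unigene with 100% identity held 2930, 1800, 118 and 1638 counts. With pairings of at least 90% identity, the share was 0.548-fold, 0.737-fold and 0.782-fold, lower than in the control in all 3. The same pairings moved the T2 shares of RPL22 and RPL15 little, to 1.66-fold and 0.570-fold. The shares of RPL17 and RPL34 went from 1.93-fold and 1.98-fold to 2.05-fold and 2.11-fold in T2, past the limit of 2-fold.

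The stalk protein RPLP0, which anchors the acidic proteins P1 and P2 on the large subunit, had the most counts among the members with large subunit names in the control, 6387, with 3991, 309 and 3900 in the treated libraries. Its share was 0.557-fold (95% exact interval 0.536 to 0.580), 0.832-fold (0.740 to 0.932) and 0.854-fold (0.820 to 0.889), below the control in each. Its partner RPLP2 had 1714, 1921, 124 and 1283 counts and a share of 0.999-fold, 1.24-fold and 1.05-fold. RPS6, the small subunit protein phosphorylated by S6 kinase downstream of mTOR, had 2653, 2813, 195 and 1887 counts and a share of 0.946-fold, 1.26-fold (95% exact interval 1.09 to 1.46) and 0.995-fold, so that it was close to the family as a whole in T1 and T3 and above it in T2. RPL10, which completes the 60S subunit late in its assembly, had 4302, 3151, 227 and 2671 counts and a share of 0.653-fold, 0.907-fold and 0.868-fold. RPL36A had 1316, 2306, 80 and 1205 counts and a share of 1.56-fold, 1.05-fold and 1.28-fold.

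Other genes of translation were set beside the members, from lists made by the role of each gene. Among elongation factors and other genes whose mRNAs are regulated like those of ribosomal proteins, 18 of 21 were tested, and their median log2 fold without mitochondrially encoded genes was -0.04, 0.32 and 0.02 in T1, T2 and T3. On that scale 1, 3 and 0 of the 18 were more than 2-fold higher, where 10.4%, 21.3% and 5.95% of all genes were, and 4, 1 and 0 were lower, where 27.3%, 29.3% and 26.2% of all genes were. For 37 of 41 ribosome biogenesis genes the medians were 0.04, 0.12 and -0.65, and for the 68 mitochondrial ribosomal protein genes 0.11, 0.07 and 0.14. The members' medians of 0.78, 1.26 and 0.66 were higher than each of these, a description that was not tested. On the scale of all goat-paired counts the medians were -0.46, -4.85 and -0.74 for the first list, -0.38, -5.05 and -1.42 for the second, and -0.30, -5.10 and -0.62 for the third. Of each list edgeR called 0 genes on both scales.

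EEF1A1, which brings aminoacyl-tRNA to the ribosome, had 41527 counts in the control and 10505, 753 and 16293 in the treated ones. Without mitochondrially encoded genes its folds were 0.386, 0.825 and 0.885. EEF2, which drives translocation, had 15325, 3484, 210 and 3944 counts and folds of 0.347, 0.623 and 0.581, so that both elongation factors lay below the control where the median member lay above it on this scale. TPT1, whose mRNA has the same kind of 5′ tract, had 56693, 85007, 1265 and 34306 counts and folds of 2.29, 1.01 and 1.37. FAU, a fusion of a ubiquitin-like protein with small subunit protein S30, had folds of 1.17, 1.40 and 1.31, whereas on the scale of all goat-paired counts they were 0.881, 0.039 and 0.769. NCL, the nucleolar protein nucleolin, had 832, 561, 13 and 292 counts and folds of 1.03, 0.711 and 0.792 without mitochondrially encoded genes. EEF1A2, the muscle form of EEF1A, had 7, 16, 2 and 0 counts.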

How the data were processed

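RNA-seq libraries of goat muscle were assembled by the authors into 59774 unigenes. The authors deposited expected counts, their estimates of fragments per unigene, all of which were whole numbers, and TPM, per length and per 1000000 transcripts. The deposited goat table pairs 21220 unigenes with goat genes and gives the percent identity of each match. The assembler, the counting tool and the goat annotation are not given in the sources used here. The submitters' processing notes name FastQC 0.10.1. FPKM, transcript and interval files were not used, and no genome positions are given.

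Expected counts and TPM were summed per goat gene with Python 3.11.15 (pandas 2.3.3, scipy 1.17.1, Biopython 1.88). Log2 folds used a pseudocount of 0.5 counts, which understates folds of low genes, and a minimum of 40 counts over 4 libraries. Intervals are 95% Clopper-Pearson intervals for counting error. The treated group was compared with the control library by edgeR 4.0.16 (R 4.3.3, quasi-likelihood test, Benjamini-Hochberg adjustment over all genes tested) on the deposited counts, and by DESeq2 1.42.0. The edgeR step was tested on simulated data with 200 changed genes. At a dispersion (spread between libraries beyond counting error) of 0.02, 178 of 200 genes changed 4-fold were called. At a dispersion of 0.5, 22 of 200 genes changed 16-fold were called. The fit scaled to all goat-paired counts had a common dispersion of 1.59, which was not simulated, so large changes could be missed there. All unigenes paired with goat proteins, including 25 without a gene name that are mitochondrially encoded, entered the library sizes. Those without a gene name were 23.8 to 97.9% of these counts and were left out of the tests. Whether the treated libraries came from separate animals or from 1 day is not stated in the labels, so SDs and p-values measure the spread between these libraries. Sequences are those of the authors' assembly, with coding parts found as open reading frames.

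The members and gene lists were chosen with earlier results of these data known. Named genes were paralog pairs (RPL3, RPL7, RPL10, RPL22, RPL26, RPL36A, RPL39 and RPS27 with their copies), RPLP0 to RPLP2, RPSA, RPS6, RPS27A, the 5 highest and lowest in mean TPM, and the 5 highest and lowest in median fold. RPS14, RPL17 and RPS15A were named after their values were seen. Alternatives were 3 other scalings, another pseudocount, no filter, TPM, at least 90% identity, other member sets, other fold limits and leaving out each treated library. Values of some genes are not reported here.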

Additional observations from a re-analysis of the deposited data

Results flagged for a closer look

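Among the 86 member unigenes, the 2 with a best protein match in an enterobacterium, 1 of them paired with RPS14, held 517 counts in T2, against 128 in the control and 256 and 154 in T1 and T3. They were singled out as signal outside the goat genes that was above the level of the control.

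Over the whole assembly, 153 unigenes had their best protein match in an apicomplexan parasite, 68 of them in Neospora caninum, 61 in Toxoplasma gondii and 5 in Sarcocystis muris. They held 1021 counts in T1, against 48 in the control and 42 and 6 in T2 and T3, and were singled out for the same reason. In T1, 143 of the 153 had at least 1 count, against 25, 27 and 1 in the control and T2 and T3. The 14 of them that the authors' table pairs with members added 59 of the 164595 member counts of T1.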

How the results depend on the processing

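The median log2 fold of members in T2 turned from -3.91 to 1.26 without mitochondrially encoded genes, 1.48 with TMM factors and 1.42 with DESeq2 size factors, and was -3.84 with a pseudocount of 3. Under the same 3 scalings the medians were 0.78, 1.23 and 1.10 in T1 and 0.66, 1.11 and 1.02 in T3, and with no filter they were 0.40 and -0.10. Members more than 2-fold higher numbered 20, 42 and 38 in T1, 48, 54 and 51 in T2, and 12, 42 and 35 in T3, and 0 were then lower in T2. With limits of 3 and 0.6, 1 member was higher in T1 and 3 were lower in T3. The shifts under the 3 scalings follow from the scaling factors themselves.

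The share of counts in the control and T1, T2 and T3 was 2.41, 4.12, 6.38 and 3.89% without mitochondrially encoded genes. It was 1.72, 2.07, 0.116 and 1.57% of all unigenes and 4.81, 5.99, 0.448 and 4.77% of TPM. With at least 90% identity it was 1.99, 2.59, 0.128 and 1.86%. Without the paralogs and RPS19BP1 it was 1.75, 2.27, 0.132 and 1.68%. That set also left out RPS17L, the only member named for protein S17, because of the L in its name. With members by protein description, added after the data were seen, the share was 2.44, 3.29, 0.178 and 2.38%. With 1 unigene per gene it was 2.34% in T1 and 0.126% in T2. The order of the libraries changed with the mitochondrially encoded genes only.

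The ratio of large to small subunit counts was 1.11, 1.23, 1.34 and 1.15 from TPM, and 1.74 in T2 with at least 90% identity. Without the paralogs, RPS19BP1 and RPS17L, it was 1.58, 1.75 and 1.62 in the control and T1 and T3. The main unigene of RPS17L held 3102 of the small subunit counts in the control. The higher ratio than with all members therefore cannot be put down to the paralogs. Without RPLP0 and RPS2 the ratio was 1.63, 1.80 and 1.67 in the control and T1 and T3. By protein description it was 1.51 and 1.59 in the control and T3.

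By edgeR, 0 members were called under every alternative run, including leaving out each treated library (0 to 0), which does not show that members were unchanged. Of 25 named members, 14 had a median log2 fold below 0 over the treated libraries on the scale of all goat-paired counts. Of these, 13 were above 0 without mitochondrially encoded genes, all but RPL15, and 14 with TMM factors and 14 with DESeq2 size factors. RPL10, for example, had -0.28 and then 0.49, 0.94 and 0.85, and RPS16 -0.71 and then 0.15, 0.60 and 0.47. No paired analysis was possible because there is 1 control library. Depth limits T2, where 3 counts are 22.4 per 1000000 counts without mitochondrially encoded genes.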
